A study of Mus musculus with 6 samples.

Results

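The genes described here are the mouse orthologs of 9 transcription, chromatin and signalling genes whose mutation in people causes a syndrome that includes a patent ductus arteriosus (DA): Tfap2b, Chd7, Crebbp, Ep300, Nipbl, Nsd1, Zeb2, Ptpn11 and Sos1. They were taken by symbol from a bulk RNA-Seq table of 23997 genes, and all 9 were among the 12955 genes that passed a filter on low values (mean FPKM of at least 1 over the libraries). The DA was dissected from C57BL/6 embryos at E17.5, and total RNA was sequenced in 6 libraries. Of these, 3 came from wild type embryos (WT libraries 0, 1 and 2) and 3 from Prdm6f/f; SM22-Cre embryos (KO libraries 0, 1 and 2), which carry floxed Prdm6 and a Cre transgene driven by the promoter of SM22 (Tagln), a gene of smooth muscle cells (SMCs). No treatment was given to either group, and whether a library holds 1 embryo or a pool is not given in the sources used here, so that the p-values below measure the spread between these libraries. Expression was given by the authors as FPKM, by definition fragments per kilobase of transcript scaled to the mapped fragments of the library. How these libraries were scaled to each other is not given in the sources used here. FPKM is per transcript length, so that levels of different genes can be compared.

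The DA is the fetal artery that joins the pulmonary artery to the aorta, and its wall is largely smooth muscle derived from the cardiac neural crest, which contracts after birth to close the vessel. Tfap2b encodes AP-2 beta, a transcription factor of the neural crest and its smooth muscle that is mutated in Char syndrome, in which a patent ductus is a cardinal sign. Several of the other genes also act in the neural crest, but most are general regulators: CHD7 is a nucleosome remodeller (CHARGE syndrome), CREBBP and EP300 are histone acetyltransferases (Rubinstein-Taybi syndrome), NSD1 methylates lysine 36 of histone H3 (Sotos syndrome), NIPBL loads the cohesin ring onto DNA (Cornelia de Lange syndrome), ZEB2 is a zinc finger repressor (Mowat-Wilson syndrome), and PTPN11 and SOS1 pass signals to RAS (Noonan syndrome).

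Upper quartiles were nearly equal across the 6 libraries (10.4 to 10.8 FPKM), and the relative depth, read from the steps of low values, ranged from 0.93 to 1.19 with WT library 1 set to 1. That reading takes each library as scaled to its own mapped fragments, which the sources do not state. The summed FPKM was less even, from 412183 in WT library 1 to 818503 in KO library 2. The absolute depth is unknown, and between 8338 and 11886 genes were listed at 0, which can also be a failed estimate. The targeted gene, Prdm6, was at 41.7, 48.4 and 19.8 FPKM in the WT libraries and at 48.6, 27.1 and 15.4 FPKM in the KO libraries, so its gene-level value did not check the labels. KO library 0 held Xist at 81.0 FPKM together with the Y-linked Ddx3y at 26.4 FPKM, whereas each other library had a high value of only one of the pair, and values without KO library 0 are given where they change a direction or an overlap. Heart muscle genes were high in WT library 1 and KO library 2, where the 12 genes summed to 1646 and 1889 FPKM, against 71.8 to 602 FPKM elsewhere. Defining smooth muscle genes were present in every library, with none of 16 listed at 0.

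None of the 9 genes differed between KO and WT at an adjusted p under 0.05 by limma with Benjamini-Hochberg adjustment over the 12955 genes tested, a threshold that 0.00772% of all genes (1 gene, the ribosomal RNA precursor Rn45s) passed. At an unadjusted p under 0.05, 1 of the 9 was lower in KO libraries (Tfap2b, against 4.97% of all genes) and 1 was higher (Zeb2, against 3.31%). By the separation of the libraries, every KO value lay below every WT value for Tfap2b, as for 7.84% of all genes, and every KO value lay above every WT value for Zeb2 and Chd7, as for 8.21% of all genes. The groups overlapped for the other 6. Tfap2b, Zeb2 and Chd7 each had an exact permutation p of 0.1 (two-sided), which is the limit for 3 libraries against 3.

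**Figure D1:**
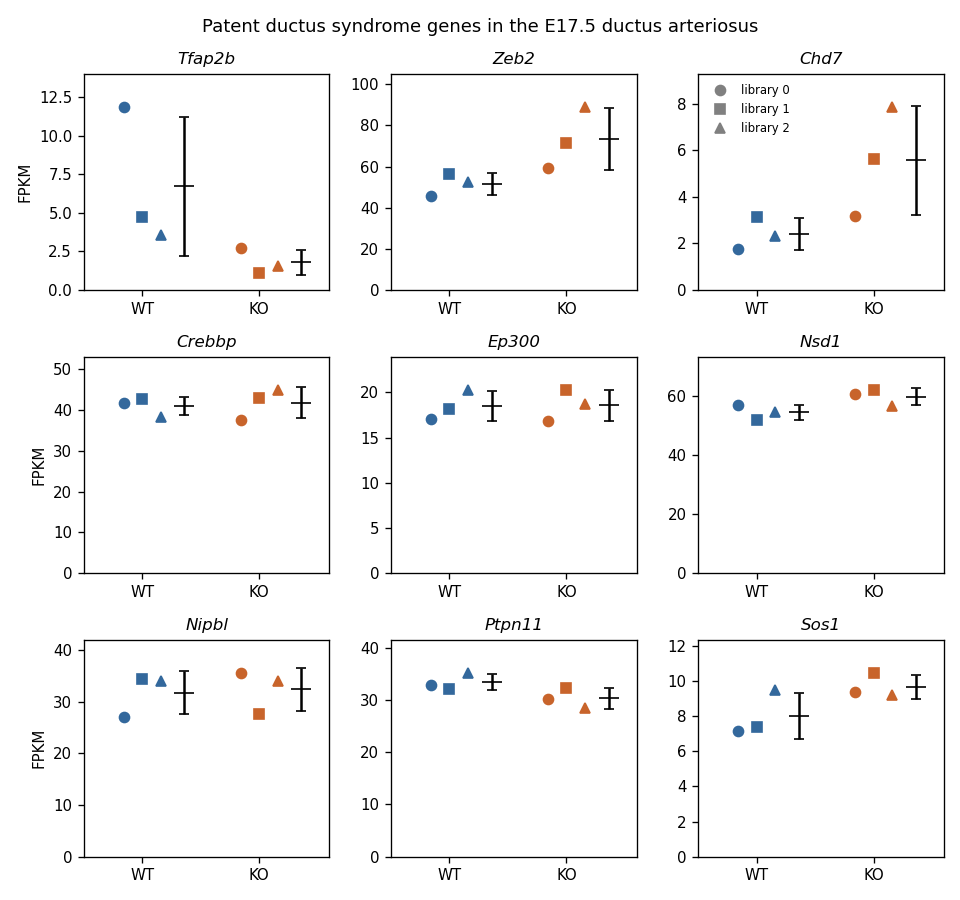
FPKM of each of the 9 genes in the 3 WT (blue) and 3 KO (orange) libraries, with a circle for library 0, a square for 1 and a triangle for 2. The black bar beside each group is its mean with the SD, and every axis starts at 0. Tfap2b was below all WT values in each KO library and Zeb2 and Chd7 were above them, while the other 6 overlapped.

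In GRCm38, to which mm10 corresponds, Tfap2b occupies chromosome 1 from 19208914 to 19238576, on the plus strand. Its level was 11.9, 4.76 and 3.56 FPKM in WT libraries 0, 1 and 2 and 2.72, 1.12 and 1.56 FPKM in KO libraries 0, 1 and 2. WT library 0 stood well above the rest, and the lowest WT value and the highest KO value were close. The means were 6.73 ± 4.49 and 1.80 ± 0.827 FPKM (SD, n = 3 each), and the log2 fold change of KO against WT was -1.74 (SE 0.65, 95% interval -3.24 to -0.24, unadjusted p = 0.0284 and adjusted p = 0.574 by limma). This was the largest change among the 9 genes, and 639 of the genes tested had a smaller p. Leaving out 1 library at a time gave between -2.09 (without WT library 2, unadjusted p = 0.0149 by limma) and -1.24 (without WT library 0, unadjusted p = 0.128). The unadjusted p was 0.0542 without WT library 1, 0.0300 without KO library 0, 0.0897 without KO library 1 and 0.0723 without KO library 2.

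No other AP-2 gene had such a separation of the libraries. Tfap2a, the closest relative measured, was low throughout, at 1.33, 1.74 and 0.313 FPKM in WT libraries and 2.65, 2.30 and 0.764 FPKM in KO libraries, and Tfap2c, Tfap2d and Tfap2e were listed at 0 in every library. The log2 ratio of Tfap2b to Tfap2a was 2.54 ± 0.99 in WT and 0.0016 ± 0.96 in KO libraries (SD, n = 3 each) and did not overlap between the groups, a difference of -2.54 (exact permutation p = 0.1, the smallest possible, and 0.72 adjusted over the 9 ratios computed). Tfap2b was the leading AP-2 transcript in every WT library and was below Tfap2a in 1 KO library, KO 1. The AP-2 coactivators Cited1 and Cited2 overlapped between the groups, with log2 fold changes of -1.68 (SE 2.22, adjusted p = 0.814 by limma) and -1.31 (SE 0.79, adjusted p = 0.669).

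Smooth muscle transcripts moved in the same direction as Tfap2b. All 16 genes of a smooth muscle list were lower in KO than in WT libraries on average, and none was called. Of these, 10 had no overlap (beside 7.84% of all genes), and Acta2, Myl9 and Myocd overlapped only through KO library 0. The median log2 fold change of the list was -1.34 against 0.072 for all genes tested. The summed level of the list was 8618, 4888 and 4777 FPKM in WT libraries 0, 1 and 2 and 4148, 3027 and 2044 FPKM in KO libraries 0, 1 and 2, so that WT library 0 was highest in both Tfap2b and smooth muscle genes. Relative to the mean log2 level of that list, Tfap2b was at -4.54, -5.06 and -5.38 in WT and at -5.22, -6.16 and -5.08 in KO libraries. These ratios overlapped, and their difference of -0.49 had an exact permutation p of 0.4 (0.72 adjusted over the 9 ratios). It was -0.13 with a pseudocount of 1, and between -0.69 (without KO library 2) and -0.16 (without KO library 1) when 1 library was left out, with -0.26 without WT library 0. In bulk tissue, fewer cells of a type and less RNA per cell cannot be told apart, and the part of the smooth muscle transcripts in the difference in Tfap2b was not tested.

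Over the 6 libraries, the log2 level of Tfap2b was most like that of Id2, an inhibitor of basic helix-loop-helix factors (Pearson r = 0.995), among the 9122 genes whose FPKM averaged at least 5. Also among the most alike were the histone gene Hist1h1e (0.989), the ribosomal protein gene Rps20 (0.986), Abcc9, which encodes a subunit of the vascular ATP-sensitive potassium channel (0.981), Akap2 (0.980), Snrpd1 (0.980) and the histone gene Hist2h2ac (0.979). Id2 was at 155, 107 and 88.6 FPKM in WT and 79.1, 51.4 and 65.8 FPKM in KO libraries. It was highest in WT library 0 and lowest in KO library 1, as Tfap2b was. These correlations describe 6 points that share 2 groups and the library differences between them. With the smooth muscle genes, Tfap2b had r between 0.584 (Cald1) and 0.931 (Actg2) over the 16 genes of the list, and 0.527 with Prdm6.

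ZEB2 represses E-cadherin and other genes during neural crest migration and is also used in Schwann cells. The gene lies on chromosome 2 from 44983632 to 45117395, on the minus strand. Its level was 45.7, 56.2 and 52.3 FPKM in WT libraries 0, 1 and 2 and 59.5, 71.7 and 89.1 FPKM in KO libraries 0, 1 and 2, so that every KO library was above every WT library. The means were 51.4 ± 5.32 and 73.4 ± 14.9 FPKM (SD, n = 3 each), a log2 fold change of 0.50 (SE 0.20, 95% interval 0.04 to 0.96, unadjusted p = 0.0360 and adjusted p = 0.591 by limma). Leaving out 1 library at a time gave between 0.35 (without KO library 2) and 0.64 (without KO library 0), with unadjusted p-values from 0.0137 to 0.110 by limma. After removal of a trend over transcript length and GC content from each library it was 0.37, and the groups overlapped. Its paralog Zeb1 had a log2 fold change of 0.0070 (95% interval -0.50 to 0.51, adjusted p = 0.992 by limma), and the log2 ratio of Zeb2 to Zeb1, 0.26 ± 0.46 in WT and 0.75 ± 0.38 in KO libraries (SD, n = 3 each), overlapped between the groups (exact permutation p = 0.3, 0.72 adjusted over the 9 ratios).

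CHD7 moves nucleosomes at enhancers, also in the neural crest. Its gene lies on chromosome 4 from 8690406 to 8867659, on the plus strand. Chd7 was the least abundant of the 9 in WT tissue, at 1.77, 3.13 and 2.32 FPKM, and was at 3.20, 5.63 and 7.87 FPKM in KO libraries 0, 1 and 2. KO library 0 was only just above WT library 1, and KO libraries 1 and 2 were well above. The means were 2.41 ± 0.680 and 5.56 ± 2.34 FPKM (SD, n = 3 each), and the log2 fold change was 1.12 (SE 0.54, 95% interval -0.13 to 2.37, unadjusted p = 0.0717 and adjusted p = 0.622 by limma), a value that lay between 0.83 (without KO library 2, unadjusted p = 0.253) and 1.47 (without KO library 0, unadjusted p = 0.0400) when 1 library was left out. Its relative Chd8, at a log2 fold change of 0.13 (95% interval -0.32 to 0.58, adjusted p = 0.832 by limma), overlapped between the groups. The log2 ratio of Chd7 to Chd8 was -3.40 ± 0.45 in WT and -2.42 ± 0.80 in KO libraries (SD, n = 3 each, exact permutation p = 0.3, 0.72 adjusted over the 9 ratios). These ratios overlapped only through KO library 0, without which the difference was 1.44 against 0.99 with all libraries. Tfap2b and Chd7 changed places: Tfap2b was above Chd7 in all 3 WT libraries and below it in all 3 KO libraries.

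Most tested markers of glia and neurons were, like Zeb2 and Chd7, higher in KO libraries on average. Of 11 Schwann cell genes, 10 were higher in KO libraries on average and none was called by limma. Among them, 4 had no overlap (beside 8.21% of all genes) and 6 had an unadjusted p under 0.05 by limma (beside 3.31%). Sox10, Mbp, Foxd3, Gfra3 and Ngfr overlapped only through KO library 0. The summed level of the list was 22.3, 30.0 and 49.6 FPKM in WT libraries 0, 1 and 2 and 55.0, 138 and 206 FPKM in KO libraries 0, 1 and 2. The KO libraries had the same order for the Schwann cell list, for Zeb2 and for Chd7. The WT libraries did not: the list was highest in WT library 2, and both genes were highest in WT library 1. Of these markers, Fabp7 was among those listed at 0 in WT library 0, Gfra3 was at 0 in WT library 1, Foxd3 and Gfra3 were among those at 0 in WT library 2, and S100b was at 0 in KO library 1. Of the 16 neuron genes, 10 passed the filter and 9 of these were higher. Among the 9, 3 had no overlap (beside 8.21% of all genes) and 3 had an unadjusted p under 0.05 by limma (beside 3.31%). The 16 summed to between 47.6 and 69.3 FPKM in WT and between 89.0 and 122 FPKM in KO libraries, with Th listed at 0 in every WT library and in KO library 1. Of the erythroid genes, all 9 tested were higher on average, 2 with no overlap (beside 8.21% of all genes). That list summed to between 3877 and 7593 FPKM in WT and between 4309 and 24402 FPKM in KO libraries, lowest of the KO libraries in KO library 2. Heart muscle genes (6 of 11 tested higher) summed highest in WT library 1 and KO library 2, where Zeb2 and Chd7 were also highest of each group. Unlike both genes, the heart muscle sum was higher in KO library 0 (213 FPKM) than in KO library 1 (168 FPKM). Of the 10 endothelial genes, 7 were higher, 2 with no overlap (beside 8.21% of all genes). Their sums overlapped between the groups (381 to 544 FPKM in WT and 478 to 716 FPKM in KO libraries), but only through KO library 0. The part of these cells in the levels of Zeb2 and Chd7 was not tested.

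**Figure D2:**
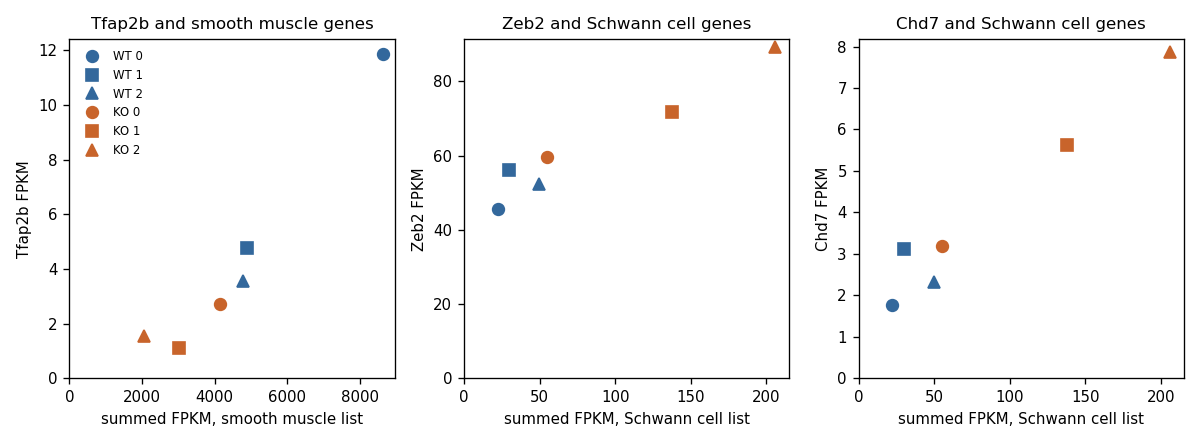
Tfap2b against the summed FPKM of 16 smooth muscle genes, and Zeb2 and Chd7 against the summed FPKM of 11 Schwann cell genes, 1 point per library (blue WT, orange KO, linear axes from 0). WT library 0 is at the top right of the Tfap2b panel at 11.9 FPKM, and KO libraries 1 and 2 stand apart at the right of the Zeb2 and Chd7 panels, whereas KO library 0 lies beside the WT libraries.

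The promoters of the 2 genes with the smallest p among the 9 are shown because AP-2 factors bind the palindrome GCCNNNGGC, which reads the same on both strands. RefSeq promoters on GRCm38.p6 were at hand for 6 of the 9 genes, the others being Chd7, Nipbl and Nsd1. The 250 bases before the start are printed 5′ to 3′, with that motif in capitals, for Tfap2b (chr1:19211804-19212053, plus strand) and for 1 of the 2 overlapping windows of Zeb2, among its 4 starts, that held the motif (chr2:45113280-45113529, minus strand).
Tfap2b: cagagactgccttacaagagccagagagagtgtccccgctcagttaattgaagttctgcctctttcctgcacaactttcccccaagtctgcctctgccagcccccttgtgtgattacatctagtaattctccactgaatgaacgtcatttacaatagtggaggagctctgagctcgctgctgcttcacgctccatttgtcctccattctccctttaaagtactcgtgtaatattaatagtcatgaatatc
Zeb2: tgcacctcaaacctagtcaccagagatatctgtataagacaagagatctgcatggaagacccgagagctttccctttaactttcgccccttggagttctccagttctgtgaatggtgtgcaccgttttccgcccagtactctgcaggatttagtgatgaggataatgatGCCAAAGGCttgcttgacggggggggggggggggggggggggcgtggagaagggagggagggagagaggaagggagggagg
The Zeb2 match begins 81 bases before this start, and no match was found in the Tfap2b window. Of the 6 genes with a promoter, 4 (Zeb2, Ptpn11, Crebbp and Sos1) had the motif in at least 1 window, beside 18.5% of all genes in the table. By window, 5 of 9 held it, beside 16.6% of the 32851 mouse promoters, each scanned over 250 bases before to 50 after the start. The 2 Zeb2 windows among these 5 hold the same match, so that this site is counted more than once. The motif CACCTG, an E-box that ZEB factors bind, searched on both strands, was in 20.2% of all promoters and in 0 of the 9 windows of these 6 genes. A match of letters is a description of the sequence and not of binding.

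The other 6 genes were among the least variable in the table. Crebbp, on chromosome 16 from 4081328 to 4213997, was at 41.8, 42.6 and 38.4 FPKM in WT and 37.5, 43.0 and 44.9 FPKM in KO libraries. Its close relative Ep300, on chromosome 15 from 81585351 to 81652077, was at 17.0, 18.2 and 20.3 FPKM in WT and 16.8, 20.3 and 18.7 FPKM in KO libraries. Crebbp overlapped only through KO library 0, without which every KO value lay above every WT value (log2 fold change 0.10), and Ep300 overlapped broadly. With all libraries they had log2 fold changes of 0.028 (95% interval -0.35 to 0.41, adjusted p = 0.966 by limma) and 0.0051 (95% interval -0.47 to 0.48, adjusted p = 0.994). Crebbp was above Ep300 in every library, by a log2 ratio of 1.14 ± 0.20 in WT and 1.17 ± 0.092 in KO libraries (SD, n = 3 each), so the balance between these acetyltransferases differed by less than the spread between libraries.

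Nsd1, on chromosome 13 from 55209782 to 55318325, was at 57.1, 52.1 and 54.6 FPKM in WT and 60.9, 62.2 and 56.7 FPKM in KO libraries. The highest WT value lay just above the lowest KO value, and the log2 fold change was 0.13 (95% interval -0.21 to 0.48, adjusted p = 0.782 by limma). Under quantile normalization or median-of-ratios scaling the same gene had every KO library above every WT library, with log2 fold changes of 0.26 and 0.15. Nipbl, on chromosome 15 from 8290617 to 8444463, was at 27.0, 34.3 and 33.9 FPKM in WT and 35.5, 27.6 and 33.9 FPKM in KO libraries. Each group had 1 low library, and the log2 fold change was 0.027 (95% interval -0.43 to 0.48, adjusted p = 0.973 by limma), or -0.045 without KO library 0.

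PTPN11 (SHP2) is a phosphatase and SOS1 an exchange factor that loads RAS with GTP. Ptpn11, on chromosome 5 from 121130533 to 121191397, was at 32.9, 32.1 and 35.2 FPKM in WT and 30.2, 32.4 and 28.4 FPKM in KO libraries, and Sos1, on chromosome 17 from 80393751 to 80480453, was at 7.15, 7.40 and 9.53 FPKM in WT and 9.39, 10.5 and 9.23 FPKM in KO libraries. For Ptpn11 the groups overlapped only through KO library 1 and WT library 1, which were nearly equal, and for Sos1 only through WT library 2. After removal of the trend over transcript length and GC content, every KO value of Ptpn11 lay below every WT value (beside 7.75% of all genes). Its log2 fold change was then -0.11. With all libraries and no such correction, the values for Ptpn11 and Sos1 were as follows. The log2 fold changes were -0.14 (95% interval -0.53 to 0.25, adjusted p = 0.796 by limma) and 0.28 (95% interval -0.38 to 0.93, adjusted p = 0.761). The log2 ratios of Ptpn11 to its adaptor Grb2 and of Sos1 to Sos2 differed by -0.27 and -0.071 between the groups (exact permutation p = 0.6 and 1.0), and those of Nsd1 to Nsd2 (listed as Whsc1) and of Nipbl to its partner Mau2 by 0.17 and -0.20 (exact permutation p = 0.4 and 0.5). Adjusted over the 9 ratios, these p-values were 0.771, 1.0, 0.72 and 0.75. Without KO library 0 the difference for Sos1 to Sos2 was 0.026.

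How little these genes moved can be given by the SD of the log2 level over all 6 libraries, whose median over the genes tested was 0.524. Nsd1 was at percentile 0.5 of that SD, Crebbp and Ptpn11 at 0.7, Ep300 at 1.1, Nipbl at 4.9 and Sos1 at 9.5, whereas Zeb2 was at 27.7, Chd7 at 67.7 and Tfap2b at 79.2. All 9 genes have long transcripts, the longest of each being between 5863 bases (Tfap2b) and 12784 bases (Nsd1) in GENCODE M21 against a median of 3432 bases for the genes tested, and the level percentiles of the 6 genes with small spread lay between 47.0 (Sos1) and 92.0 (Nsd1) among the genes tested. For 7 of the 9, the 95% interval of the log2 fold change lay within -1 and 1, so that a change of more than 2-fold in either direction lay outside it, and the exceptions were Tfap2b and Chd7. The median log2 fold change of the 9 was 0.028, beside 0.072 for all genes tested.

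**Figure D3:**
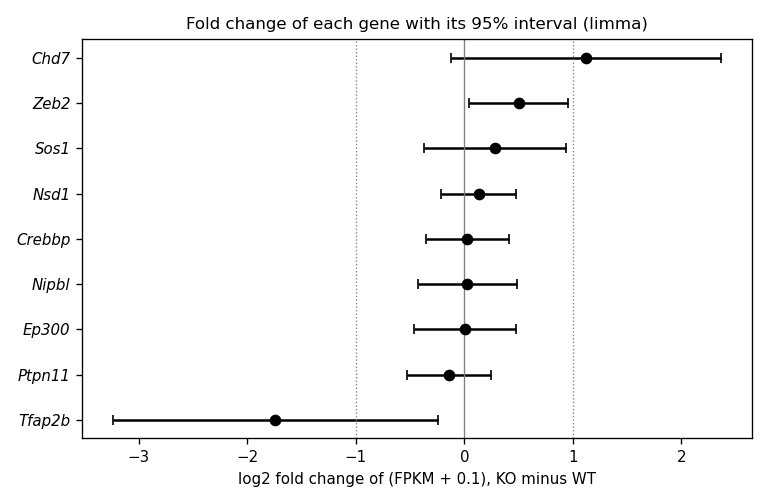
Log2 fold change of FPKM + 0.1, KO minus WT, for each of the 9 genes (points) with the 95% interval from limma (bars), ordered by size. Dotted lines mark a log2 change of -1 and 1. The intervals of Tfap2b (-3.24 to -0.24) and Chd7 (-0.13 to 2.37) are wide and reach past these lines, and the other 7 lie between them.

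As FPKM is per length, the levels of the 9 can be set beside each other. Averaged over the 6 libraries, Zeb2 was highest at 62.4 FPKM, followed by Nsd1 at 57.3, Crebbp at 41.4, Nipbl at 32.1, Ptpn11 at 31.9, Ep300 at 18.5, Sos1 at 8.86, Tfap2b at 4.26 and Chd7 at 3.98 FPKM. The ranges over libraries overlapped between the neighbours Zeb2 and Nsd1, Nipbl and Ptpn11, Sos1 and Tfap2b, and Tfap2b and Chd7, and the other neighbours kept their order in all 6 libraries. Crebbp ranked 3 and Ep300 ranked 6 among the 9 in every library. Tfap2b ranked 7 in WT library 0, 8 in the other WT libraries and 9, the last place, in all KO libraries.

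The pathways around the 9 genes were described through 9 lists with 104 genes, of which 99 passed the filter. None was called by limma. At an unadjusted p under 0.05 by limma there were 6 lower and 1 higher, beside 4.97% and 3.31% of all genes. Every KO value lay below every WT value for 15 of the 99 (15.2%, beside 7.84% of all genes) and above for 4 (Nras, Shoc2, Ash1l and Nf1, which encodes a RAS inhibitor; 4.04%, beside 8.21%). Their median log2 fold change was -0.043. No statement is made on whether these shares differ from those of other genes.

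Among cohesin and its regulators, every KO value lay below every WT value for 3 of the 15 genes tested, beside 7.84% of all genes. They were subunits of the ring, and the values of the loader Nipbl overlapped. Smc1a was at 93.7, 81.1 and 102 FPKM in WT and 53.7, 53.8 and 59.0 FPKM in KO libraries, with a wide gap between the groups, a log2 fold change of -0.73 (SE 0.16, unadjusted p = 0.00201 and adjusted p = 0.414 by limma). Rad21, the subunit that closes the ring, was at 112, 105 and 89.8 FPKM in WT and 61.1, 69.5 and 77.4 FPKM in KO libraries (-0.56, SE 0.17, adjusted p = 0.535), and Smc3 was at 47.7, 46.9 and 47.9 FPKM in WT and 36.4, 41.3 and 40.8 FPKM in KO libraries (-0.27, SE 0.15, adjusted p = 0.660). These 3 were the only ones of the 15 tested genes of the list whose groups did not overlap, and SMC1A, SMC3 and RAD21 are also mutated in Cornelia de Lange syndrome. The list as a whole had a median log2 fold change of 0.018, with 8 genes higher and 7 lower, and Pds5a, which regulates cohesin release, was at 0.46 (adjusted p = 0.659).

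In the RAS-MAPK pathway, 28 genes were tested, with 15 higher, 13 lower and a median of 0.024. Every KO value lay above every WT value for 3 and below for 2, beside 8.21% and 7.84% of all genes. Nras, a RAS gene of Noonan syndrome, was at 8.62, 8.39 and 6.11 FPKM in WT and 14.3, 14.2 and 14.2 FPKM in KO libraries, a tight group well above the WT values (log2 fold change 0.89, SE 0.27, unadjusted p = 0.0107 and adjusted p = 0.535 by limma). Shoc2, a scaffold for RAF activation, lay above in every KO library (0.42, SE 0.18, adjusted p = 0.609), and Mras, its partner GTPase, lay below in every KO library (-0.76, SE 0.38, adjusted p = 0.632). Hras was at 14.5, 20.8 and 26.9 FPKM in WT and 16.1, 12.2 and 11.6 FPKM in KO libraries. Its groups overlapped only through KO library 0 (log2 fold change -0.61, adjusted p = 0.622 by limma).

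Of all genes tested, 7.84% lay below in every KO library and 8.21% lay above. Among the 8 CHD remodellers tested beside Chd7, none was higher in every KO library. Chd4, of the NuRD complex, and Chd1l lay below in every KO library, with log2 fold changes of -0.36 and -0.64 (adjusted p = 0.611 for both by limma). Of the 10 partners of CBP and p300, Crtc3, a coactivator of CREB, was at 12.8, 12.5 and 18.5 FPKM in WT and 10.9, 8.58 and 7.60 FPKM in KO libraries (-0.68, SE 0.29, adjusted p = 0.600), with 5 genes of the list higher and 5 lower. Of the 7 ZEB, SNAIL and TWIST factors and CtBP corepressors, Ctbp1, which ZEB2 recruits, lay below in every KO library (-0.38, SE 0.17, adjusted p = 0.611), while Twist1, Twist2 and Snai1 overlapped. Among the 6 other H3K36 methyltransferases and related enzymes, Ash1l lay above in every KO library by a log2 fold change of 0.22 (adjusted p = 0.705). Of 12 other chromatin genes of developmental syndromes, 8 were lower on average. Ehmt1, Smarca2 and Ankrd11 lay below in every KO library, beside 7.84% of all genes. Their log2 fold changes were -0.40, -0.55 and -0.37 (adjusted p between 0.611 and 0.617 by limma).

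Of the 10 other genes tied to a patent ductus, several are genes of the contractile muscle itself. On average 6 were lower and 4 higher in KO libraries, and 3 had every KO value below every WT value, beside 7.84% of all genes. Kcnj8 encodes the pore of the vascular ATP-sensitive potassium channel and Abcc9 its regulatory subunit, and both are mutated in Cantú syndrome. Kcnj8 was at 32.8, 29.0 and 31.8 FPKM in WT and 15.6, 15.2 and 13.2 FPKM in KO libraries, with little spread within either group, a log2 fold change of -1.09 (SE 0.19, unadjusted p = 0.000539 and adjusted p = 0.317 by limma), and Abcc9 was at 67.5, 52.4 and 41.4 FPKM in WT and 39.8, 32.2 and 32.5 FPKM in KO libraries (-0.60, SE 0.22, adjusted p = 0.574). Myh11, smooth muscle myosin heavy chain and a gene of familial patent ductus with aortic aneurysm, was at 749, 284 and 308 FPKM in WT and 148, 157 and 65.6 FPKM in KO libraries (-1.81, SE 0.46, adjusted p = 0.463). None of these 3 was called, and they moved in the direction of the smooth muscle list given above, which holds Myh11.

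**Figure D4:**
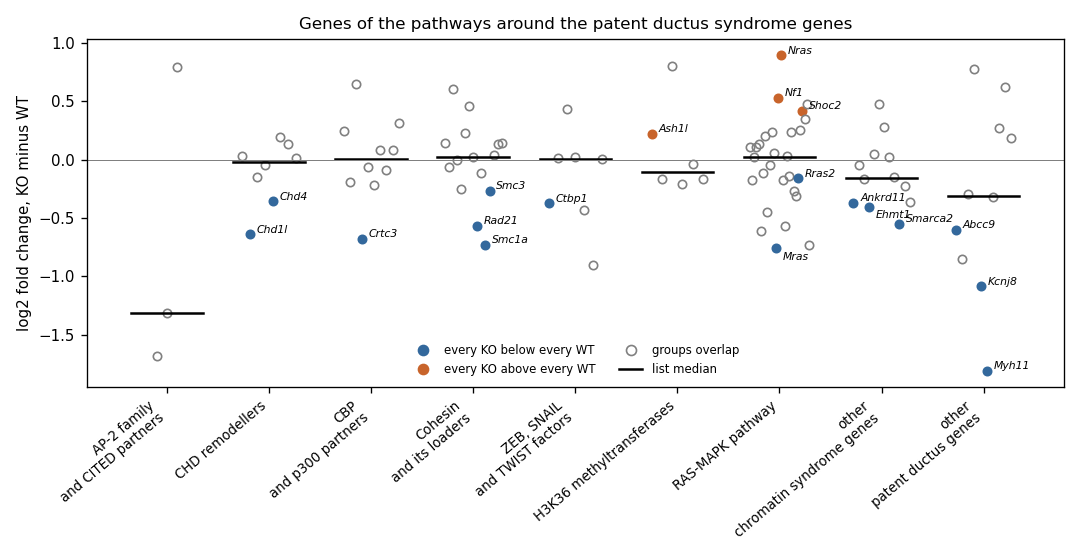
Log2 fold change, KO minus WT, of each of the tested genes in the 9 pathway lists (points), with the list median (black line). Filled points mark genes whose libraries did not overlap, blue below and orange above the WT values. Most points lie within 1 of 0, and Myh11 at -1.81 and Kcnj8 at -1.09 are the lowest of the filled ones.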

How the data were processed

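The authors trimmed the reads (by base quality, and to a length of at least 45 bases), used TopHat2 for alignment to mm10, and quantified genes with Cufflinks and Cuffdiff. The deposited values are FPKM, 1 per gene and library. Versions, gene annotation and scaling between libraries are not given in the sources used here. FPKM values hold no counts, so count tests and Cuffdiff were not run. From them, log2(FPKM + 0.1) was computed for 12955 genes (FPKM averaging at least 1 over the libraries), and KO was compared with WT by limma 3.58.1 in R 4.3.3 (mean-variance trend, two-sided, Benjamini-Hochberg, threshold 0.05). Changes of genes with low FPKM are understated on this scale. Ratios within a library were compared by two-sided exact permutation tests in SciPy 1.17.1. The fit was tested on simulated data. Each column was matched to its library by title, with 0 columns unmatched.

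The 9 genes and all lists were chosen with earlier results of these data known. Named genes were the 9, up to 4 genes of each list with the smallest unadjusted p, the partner of each ratio, and the 8 genes most like Tfap2b, of which 1 is not reported here. Nf1, single markers and their values, and Cald1, Actg2 and Prdm6 beside the Tfap2b correlations were named after their values were seen. Alternatives varied the filter on low values, the pseudocount, the variance model, the scaling between libraries and the libraries included, took the replicate numbers as a block, or removed trends over transcript length and GC content. Positions came from GENCODE M21, and promoters from RefSeq on GRCm38.p6.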

Additional observations from a re-analysis of the deposited data

How the results depend on the processing

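Over all 169 values of the 9 genes under the alternatives, 0 passed the adjusted threshold, the smallest adjusted p by limma being 0.494. The filters, the variance models and the block leave the fold change as it is, and of the other 117 values 105 kept the direction reported. The 12 that turned were of Crebbp, Ep300 and Nipbl, whose intervals are centred near 0. Ep300 was at -0.011 when the 2 libraries richest in heart muscle genes (WT 1 and KO 2) were left out, and Nipbl at -0.047 after the length and GC correction, with and without the replicate block. Leaving out 1 library at a time gave log2 fold changes from -0.026 to 0.10 for Crebbp, -0.059 to 0.075 for Ep300 and -0.086 to 0.14 for Nipbl, and ratio differences from -0.090 to 0.096 for Crebbp to Ep300, -0.27 to 0.080 for Sos1 to Sos2 and -0.50 to 0.047 for Ptpn11 to Grb2. The number of the 9 without overlap rose to 5 when the heart-rich libraries were left out, which leaves 2 against 2 and raises the shares over all genes to 17.6% below and 20.4% above. A filter at a mean FPKM of 5 leaves out Tfap2b and Chd7.

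Genes called over the whole table numbered 2 without the mean-variance trend, 2 without moderation, 2 when the heart-rich libraries were left out, 0 after the length and GC correction (with 955 at an unadjusted p under 0.05), which leaves out Rn45s, and 0 with that correction and the replicate block, and 1 to 2 when 1 library was left out (2 without WT 1 or without KO 2). The replicate numbers did not pair the libraries (correlations of deviations of 0.12, -0.076 and -0.0088 for numbers 0, 1 and 2), and under the replicate block the log2 fold change of Tfap2b had an adjusted p of 0.551 and 1 gene was called. The unknown depth limits what can be said of Tfap2b and Chd7, the genes with the lowest levels, and of genes listed at 0.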
